A study of Mus musculus with 4 samples.

Results

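The MHC class I antigen presentation genes examined here are 10 genes of 21951 protein-coding genes in the annotation: H2-K1, H2-D1, B2m, Tap1, Tap2, Tapbp, Psmb8, Psmb9, Psmb10 and Nlrc5. They were chosen by name, and every ATAC-seq peak overlapping a gene body or the 5 kb on either side of it was taken. Merging the peaks of all libraries gave 32 regions in these windows, of 71243 regions in all. ATAC-seq marks open chromatin by where the transposase Tn5 can insert adapters, and it was run on bone marrow-derived macrophages (BMDMs) of 2 genotypes to ask how the loss of histone H3.3 changes chromatin accessibility. Both genotypes carried floxed copies of the genes encoding H3.3. WT mice were H3f3a fl/fl H3f3b fl/fl without Cre, and cKO mice carried the same alleles with LysM cre/cre, in which Cre is expressed from the Lyz2 locus of myeloid cells. Each genotype had 2 biological replicates. Marrow of C57BL/6 mice aged 8 to 10 weeks was grown in medium with 20% L929-conditioned medium, with no stimulus given in the labels. The general culture protocol gives 6 to 8 days, and the study's text names a single day within that range for the ATAC-seq cultures. The study's text describes the H3f3b deletion as complete in some cases and partial in others, so a cKO culture may hold cells that kept this gene.

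MHC class I molecules show peptides from inside the cell to CD8+ T cells. The proteasome cuts proteins into peptides, and its inducible form carries the subunits Psmb8, Psmb9 and Psmb10. The transporter made of Tap1 and Tap2 moves peptides into the endoplasmic reticulum, where tapasin (Tapbp) helps load them onto a heavy chain (H2-K1 or H2-D1) paired with the light chain beta-2-microglobulin (B2m). Nlrc5 is a transcriptional co-activator that acts on promoters of genes in this pathway, and interferon raises the expression of most of the genes named here. Class I molecules are present on nearly all nucleated cells, macrophages included.

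The gained site behind B2m, the promoter of the same gene, whose values overlapped between genotypes, and the H2-K1 promoter, which was slightly higher in cKO, are printed with the sequence motifs found in them. The promoter runs are the 250 bases before the RefSeq start and come from RefSeq on build GRCm38.p6, which has the coordinates of mm10. RefSeq entries were matched for 8 of the 10 genes, all but Tap2 and Nlrc5. Capitals mark motif matches on either strand, overlapping matches included, and no match is evidence of a bound factor. The motifs searched were the core of the interferon-stimulated response element (ISRE, GAAANNGAA), the interferon-gamma-activated site GAS (TTCNNNGAA), NF-kB, AP-1 (TGANTCA), PU.1 (GAGGAAG) and the CCAAT box (CCAAT). The H2-K1 run lies on the reverse strand at chr17:34000348-34000597, the B2m run on the forward strand at chr2:122147437-122147686, and the gained site spans 241 bases centred on the summit of both cKO peaks at chr2:122157377-122157617, given on the forward strand.
H2-K1 promoter: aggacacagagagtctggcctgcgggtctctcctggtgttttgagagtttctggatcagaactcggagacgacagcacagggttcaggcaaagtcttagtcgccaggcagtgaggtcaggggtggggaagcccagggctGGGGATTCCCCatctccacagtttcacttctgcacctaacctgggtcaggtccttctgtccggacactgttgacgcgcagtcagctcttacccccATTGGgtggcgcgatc
B2m promoter: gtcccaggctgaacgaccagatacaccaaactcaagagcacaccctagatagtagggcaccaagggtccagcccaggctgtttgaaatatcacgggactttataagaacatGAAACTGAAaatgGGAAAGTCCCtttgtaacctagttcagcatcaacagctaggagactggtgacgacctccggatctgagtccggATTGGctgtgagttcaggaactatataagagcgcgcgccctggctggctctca
B2m gained site: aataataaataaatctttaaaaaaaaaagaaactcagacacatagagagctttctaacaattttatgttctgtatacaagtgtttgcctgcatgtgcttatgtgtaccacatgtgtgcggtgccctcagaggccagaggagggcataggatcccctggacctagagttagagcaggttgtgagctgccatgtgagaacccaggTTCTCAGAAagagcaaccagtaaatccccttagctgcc

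The 2 heavy-chain promoters held the same palindromic NF-kB match, which is known as part of enhancer A of class I genes. It is shown with its flanks for both genes, with the match in capitals, at chr17:34000439-34000468 on the reverse strand for H2-K1 and at chr17:35262913-35262942 on the forward strand for H2-D1.
H2-K1 NF-kB site: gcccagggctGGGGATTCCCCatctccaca
H2-D1 NF-kB site: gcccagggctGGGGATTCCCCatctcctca
Of these 30 bases, 29 were identical, and the longest run shared by the 250-base windows was 47 bases.
In the B2m promoter the capitals mark an ISRE core at -139 to -131 and an NF-kB match at -126 to -117, counted from the RefSeq start, followed by a CCAAT box on the reverse strand. An NF-kB match was found in 3 of the 8 genes (H2-K1, H2-D1 and B2m) and in 7.01% of 27025 RefSeq promoters of the same length. An exact match to the ISRE core pattern was found in B2m alone among the 8 genes, with 7.16% of all promoters holding one. The GAS element was found in Psmb8 alone (7.18%). Variants of a motif were not searched, so a promoter without a match may still hold one. A CCAAT box was present in 6 of the 8 genes (34.5%), where the windows of Tap1 and Psmb9 overlap and share the same box, whereas AP-1 (6.87%) and PU.1 (10.4%) had no match in any of the 8. The gained B2m site had 1 match, a GAS element at 83 to 91 bases past the summit.

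The 4 peak lists held between 51955 and 64939 peaks, covering 28.4 to 35.2 Mb, and replicate 2 had the longer list in each genotype. The strength of a peak is given as the percentile of its area (the authors' signal, the area under the significance curve) among all peaks of the same library, and it is 0 where the library had no peak. A region with several peaks takes that of the strongest. As a check of the labels, the region over the floxed exon 2 of H3f3a was called in both WT libraries, at percentiles 5.02 and 19.1, and in neither cKO library. H3f3b, in which exons 1 to 4 were floxed, still had a region in all 4 libraries, at 94.2 and 95.5 in WT and at 87.0 and 81.4 in cKO. Of the 5 macrophage markers with a promoter region, Cd68 was higher in both cKO libraries (91.2 and 89.7 in WT against 92.7 and 92.7 in cKO). Adgre1 lay between 73.6 and 79.3 in all libraries and Itgam between 50.3 and 58.0, both with overlap. Csf1r and Mertk were lower in both cKO libraries (73.7 and 85.3 in WT against 56.4 and 61.4 in cKO for Csf1r, 89.3 and 92.8 against 73.9 and 79.1 for Mertk). Spi1 had 9 regions in its window and none in its promoter. Cd3e, Ncr1 and Dcn, which mark T cells, NK cells and fibroblasts, had no region in any library, and the progenitor marker Kit had 1 region outside its promoter. The neutrophil marker Ly6g had a promoter region in the cKO libraries alone, at 30.3 and 17.8, and its part in the results was not tested. In such bulk libraries, fewer cells with an open site and less accessibility in each cell cannot be told apart.

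The class I windows were open in both genotypes. The number of peaks in the windows was 29 and 33 in WT against 29 and 31 in cKO, with means of 31 ± 2.83 and 30 ± 1.41 (SD, n = 2). The difference of -1 peak lay within the spread of the replicates (two-sided exact permutation test, p = 1). The peaks covered 15907 and 16529 bp in WT against 18007 and 20678 bp in cKO, which is 16218 ± 440 bp against 19342.5 ± 1889 bp (SD, n = 2). Both cKO libraries were above both WT libraries, with a difference of 3124.5 bp (two-sided exact permutation test, p = 0.333, the smallest p that 2 against 2 libraries can give). The 5 kb behind the end of B2m alone accounted for 2689 bp of the difference, with 1761 and 1613 bp covered in WT against 4080 and 4672 bp in cKO.

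B2m (ENSMUSG00000060802.8, chr2:122147686-122153083, forward strand) held the largest differences of the windows in percentile (60.2 points) and in covered length, both at its 3′ side. Its window had the single gained region, called in both cKO and neither WT library, among the 32 regions, and gained regions made up 3.72% of all regions. That made 1 of the 10 genes with a gained region, against 9.64% of all protein-coding genes that had a region in their window. The region at chr2:122157023-122157894 had percentiles of 0 and 0 in WT and of 52.7 and 67.8 in cKO. Its summit was at the same base, 122157497, in both cKO libraries, and its near edge lay 3940 bp past the end of the gene, in an intron of the overlapping gene Patl2. Of the 31-base words of this region, 13.4% occur elsewhere in the genome. The peak caller was run at its defaults per the study's methods, which do not spell out how reads with several matches were treated.

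The neighbouring region at chr2:122152849-122156883 starts just before the end of B2m and reaches 3800 bp past it. It was called in all 4 libraries at percentiles 79.6 and 82.3 in WT against 94.9 and 99.4 in cKO, so that both cKO libraries stood above both WT libraries (80.9 ± 1.92 against 97.1 ± 3.18, SD, n = 2). The difference was also one of breadth. The peaks covered 1970 and 1820 bp of the region in WT against 3631 and 4035 bp in cKO. Each WT library and cKO replicate 1 had 3 separate peaks there, while cKO replicate 2 had 1 peak over the whole 4035 bp, and the percentile of a merged peak counts the area of all of it. The strongest summit moved little, from 122156123 and 122156122 in WT to 122156068 and 122156069 in cKO. Only 0.0604% of all regions were at least as wide.

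The B2m promoter did not share this difference. Its region (chr2:122146684-122148953) was among the strongest of each list, at 96.1 and 98.3 in WT against 95.1 and 97.3 in cKO, with the summit at base 122147630 in all 4 libraries, 56 bp before the start. The genotypes overlapped here, but ranked by the summit p-value both cKO libraries were lower, by a mean difference of -2.27 points. A weak region further upstream (chr2:122145822-122146185) was at 0 and 22.7 in WT and at 8.83 and 15.2 in cKO, and also overlapped.

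**Figure D1:**
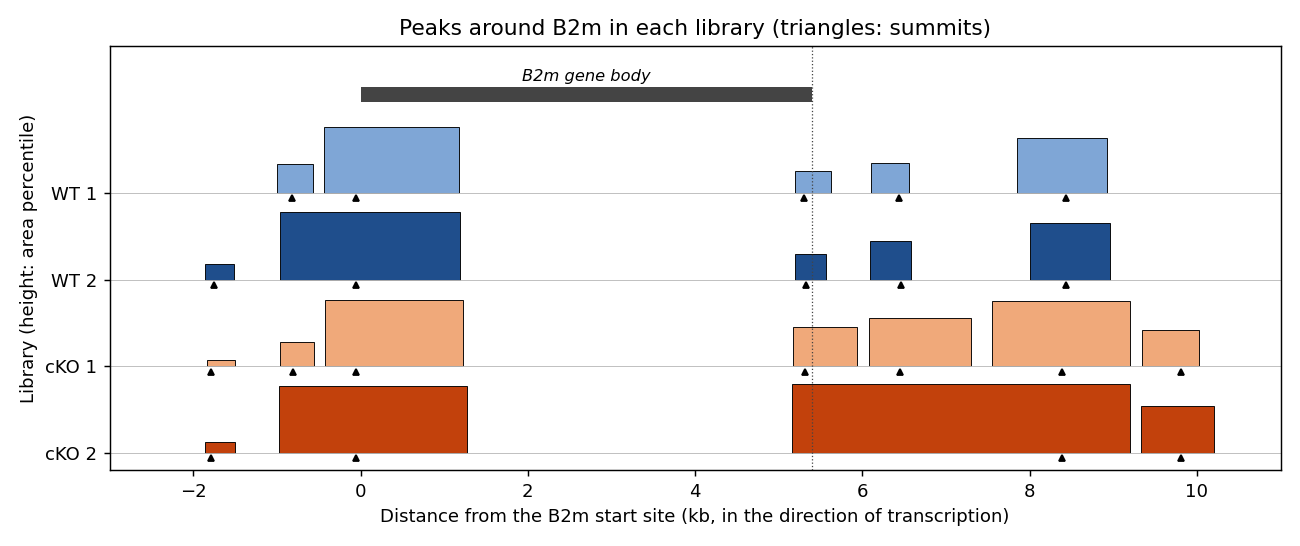
Peaks around B2m in each library. The x axis is the distance from the start site in kb, boxes are peaks whose height is the area percentile within the library, triangles are summits, and the dotted line is the end of the gene. The promoter summit is at the same base in the 4 libraries, whereas the peaks past the end of the gene are wider in both cKO libraries and the rightmost peak is found in the cKO libraries alone.

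The heavy-chain genes had unlike promoters. H2-K1 (ENSMUSG00000061232.16, chr17:33996017-34000347, reverse strand) had 1 region, at its promoter (chr17:33999917-34000746), with percentiles 74.3 and 74.9 in WT against 76.2 and 78.1 in cKO. Both cKO libraries were higher, by a mean of 2.54 percentile points (74.6 ± 0.465 against 77.2 ± 1.34, SD, n = 2). This order was lost when peaks were ranked by their summit p-value instead of their area, where the difference was 0.229 points. The printed NF-kB site lies in this region.

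H2-D1 (ENSMUSG00000073411.11, chr17:35262730-35267499, forward strand) had its promoter region at chr17:35262600-35263336, at 86.4 and 88.1 in WT and at 81.8 and 82.3 in cKO. Both cKO libraries were lower, by 5.20 points (87.3 ± 1.26 against 82.1 ± 0.339, SD, n = 2). The 2 heavy-chain promoters thus went in opposite directions, and that difference was not tested. Upstream of H2-D1 there were 3 intergenic regions called in all 4 libraries. The farthest (chr17:35257368-35257767) was lower in both cKO libraries, at 49.4 and 53.4 in WT against 27.6 and 37.7 in cKO. The cKO replicate 2 peak there lies just outside the window. Its value counts for the region, but not for the number of peaks or the covered length in the windows. The neighbouring region (chr17:35257910-35258516) was higher in both, at 34.6 and 40.2 against 40.4 and 54.2, a margin of less than 1 point between the nearest libraries. The third (chr17:35259013-35259528) overlapped, at 58.8 and 65.9 in WT against 64.2 and 67.0 in cKO. A peak past the gene (chr17:35269829-35270214) was called in cKO replicate 2 alone at percentile 0.305.

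Class I heavy chains are near copies of one another, so reads can be shared between them. Words of 31 bases found elsewhere in the genome made up 10.9% of the H2-K1 promoter region, 15% of the H2-D1 promoter region and 28.4% of the farthest upstream region of H2-D1, and the values of these regions are less certain for that. Of the 32 regions, 18 had no such word, and 4 had 10% or more.

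**Figure D2:**
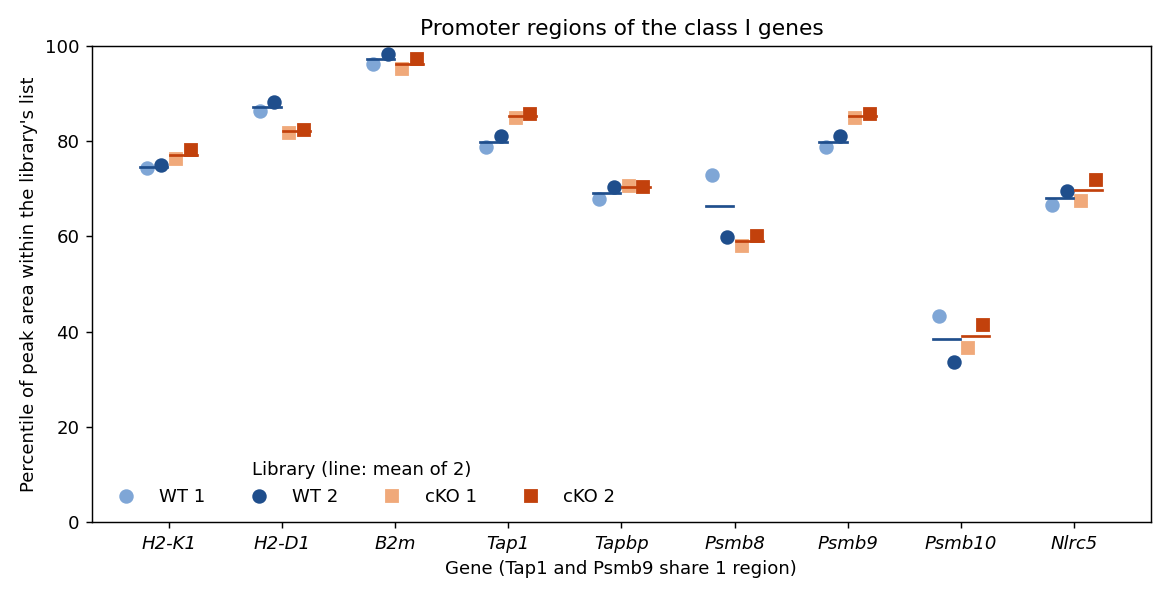
Area percentile within each library's list (y axis) for the promoter regions of 9 genes (x axis), with 1 point per library and a line at the mean of 2. H2-K1, Tap1 and Psmb9 have both cKO libraries above both WT libraries, H2-D1 has both below, and the other 5 overlap.

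Among the genes for peptide transport and loading, the shared promoter of Tap1 and Psmb9 was the one that was higher in cKO. Tap1 (ENSMUSG00000037321.17, chr17:34187553-34197225, forward strand) starts back to back with Psmb9 (ENSMUSG00000096727.3, chr17:34181987-34187764, reverse strand), and a single region of 1300 bp (chr17:34186941-34188240) covered both starts. Its percentiles were 78.7 and 81.1 in WT against 84.9 and 85.8 in cKO. Both cKO libraries were higher, by 5.45 points (79.9 ± 1.71 against 85.4 ± 0.646, SD, n = 2). The strongest summit was at bases 34187689 and 34187698 in WT and at 34187460 and 34187461 in cKO, so its place differed as well. The shared promoter was counted once among the regions.

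Tap2 (ENSMUSG00000024339.12, chr17:34203527-34216321, forward strand), the partner of Tap1 in the transporter, had no region at its promoter in any library. Inside the gene, an intronic region (chr17:34205927-34206223) was called in all 4 libraries and overlapped, at 15.1 and 30.4 in WT against 27.9 and 36.4 in cKO. The other intragenic regions were weak. One (chr17:34204371-34204601) was at 5.21 and 5.50 in WT and at 0 and 3.65 in cKO, and the other (chr17:34210588-34210920) was called in cKO replicate 2 alone at 13.6.

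Tapbp (ENSMUSG00000024308.15, chr17:33915899-33929292, forward strand), which encodes tapasin, had 5 regions, all called in all 4 libraries. Its promoter region (chr17:33919169-33919911) overlapped, at 67.8 and 70.4 in WT against 70.6 and 70.4 in cKO, where the cKO values fell within 1 point of WT replicate 2. The starts of its transcripts in the basic annotation lie inside the printed gene body, which begins further upstream. A region with its summit 798 to 841 bp past the nearest start (chr17:33920198-33921024) was higher in both cKO libraries, at 35.7 and 24.7 in WT against 47.4 and 54.3 in cKO, an order that was lost with the ranking by summit p-value. Near the other end of the gene, a region over the promoter of the neighbour Rgl2 (chr17:33929326-33930130) was at 37.0 and 51.6 in WT and at 64.6 and 68.1 in cKO. The next region, in an Rgl2 intron (chr17:33930488-33931279), was at 68.2 and 72.7 against 73.7 and 73.0. Both were higher in cKO without overlap, the intronic one by a margin of less than 1 point between the nearest libraries. Both lie past the end of Tapbp within Rgl2. The promoter of the neighbour Zbtb22 (chr17:33915642-33916273), also in the window, overlapped at 89.5 and 90.5 in WT against 90.0 and 89.5 in cKO.

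At the other immunoproteasome genes the area percentiles overlapped between genotypes. Psmb8 (ENSMUSG00000024338.15, chr17:34197721-34201454, forward strand) had its promoter region at chr17:34197361-34198598, just past the end of Tap1. Its percentiles were 73.0 and 59.8 in WT against 57.9 and 60.1 in cKO, with WT replicate 1 standing above the other 3 libraries. The difference of -7.41 points became -0.848 without it. WT replicate 1 had 1 peak of 1099 bp there, and a merged peak counts the area of all of it. The other libraries had 2 peaks each, the strongest 462 bp wide in WT replicate 2 and 497 and 521 bp in cKO. Psmb10 (ENSMUSG00000031897.9, chr8:105935735-105938444, reverse strand) had a promoter region (chr8:105937636-105938577) at 43.4 and 33.7 in WT against 36.5 and 41.5 in cKO. These overlapped, but ranked by the summit p-value both cKO libraries were lower there, by a mean difference of -17.5 points. Its intronic region (chr8:105936868-105937422) was stronger, at 64.1 and 69.5 in WT against 62.0 and 67.8 in cKO, and overlapped too. The region past the end of Psmb9 (chr17:34180615-34180822) was called in WT replicate 2 alone at 6.42.

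Nlrc5 (ENSMUSG00000074151.13, chr8:94434356-94527272, forward strand), the regulator of the pathway, is the longest of the genes and had 9 regions. Its promoter region (chr8:94433694-94434648) overlapped between genotypes, at 66.6 and 69.5 in WT against 67.5 and 71.8 in cKO. Among its regions called in all 4 libraries, the largest difference was that of an intronic region (chr8:94437003-94437275), with its summit between 2757 and 2774 bp past the nearest start, which was at 0.201 and 15.7 in WT and at 35.6 and 47.2 in cKO (7.93 ± 10.9 against 41.4 ± 8.21, SD, n = 2). A second intronic region (chr8:94492060-94492692) went the other way, at 24.4 and 19.3 in WT and at 3.40 and 0.361 in cKO. These were weak peaks, some close to the smallest area the peak caller kept.

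Of the other Nlrc5 regions, 3 called in all 4 libraries overlapped and 3 were called in some libraries alone. Intronic regions at chr8:94443154-94443607 and chr8:94458541-94458997 were called in all 4, at 18.1 and 23.8 in WT against 18.2 and 26.9 in cKO for the first and at 54.9 and 49.9 against 36.7 and 58.5 for the second. The intronic region at chr8:94457910-94458189 was at 15.0 and 15.4 in WT and at 0 and 2.95 in cKO. Past the end of the gene, a region (chr8:94530657-94531017) was at 41.9 and 51.9 in WT and at 0 and 25.4 in cKO. In both of these the cKO values were below both WT values, by mean differences of -13.7 points for the intronic region and -34.2 points for the one past the gene. Each was missing from 1 cKO list only, so neither counts as lost. Another region past the gene (chr8:94528082-94528477) was at 5.06 and 11.6 against 8.15 and 19.3, and one before it (chr8:94429315-94429651) was called in both replicate 2 libraries alone, at 22 in WT and 9.69 in cKO.

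**Figure D3:**
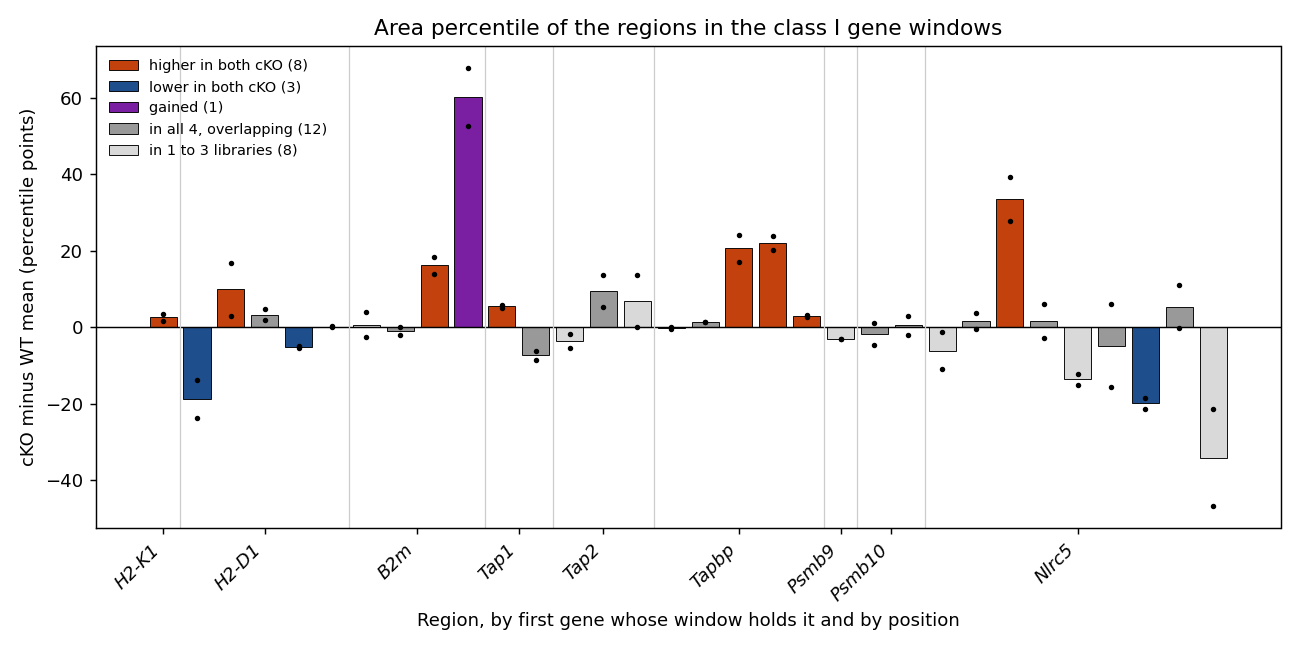
Difference between the cKO and WT means of the area percentile (y axis, in percentile points) for each of the 32 regions, placed under the first gene whose window holds it, so that the Psmb8 regions stand under Tap1 and Tap2. Black points are the 2 cKO libraries, each minus the WT mean, and colours give the call. The gained B2m region stands at 60.2 points, and the bars on either side of 0 within H2-D1 and Nlrc5 show regions of 1 gene that went in opposite directions.

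Counted over the windows, 23 of the 32 regions were called in all 4 libraries, 1 was gained and 0 were lost, where 7.25% of all regions were lost. The other 8 were called in 1 to 3 libraries. In 3 of these 8, the Tap2 region at chr17:34204371-34204601 and the pair at Nlrc5, both cKO values were below both WT values, and in 0 of them above, where 14.7% and 8.58% of all such regions were. Of the 23, both cKO libraries were higher in 8 regions (34.8%) and lower in 3 (13.0%), and 12 overlapped. The 8 higher regions include the pair within Rgl2 and the broad region behind B2m, whose centre lies in Patl2. Over all 44820 regions called in all 4 libraries, 22.2% were higher and 35.1% were lower in both cKO libraries. That background depends on the scale: with lists cut to equal length it was 36.8% higher and 35.7% lower, and with ranks taken among the regions called in all 4 it was 36.5% and 35.8%. On these scales 12 of 20 and 13 of 23 regions in the class I windows were higher, and 2 and 3 were lower.

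At promoters, 3 of the 9 genes with a region (2 of 8 distinct regions) were higher in both cKO libraries and 1 was lower, where 20.8% and 33.7% of all protein-coding promoter regions were. Of the 10 genes, 0 had a lost region, whereas 19% of protein-coding genes with a region did. Of the 32 regions, 17 lie on chromosome 17 and 4 fall in more than 1 of the windows, so the regions are not independent of one another.

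Other genes of the class I pathway were counted in the same way. The 25 genes had 80 regions, of which 2 were gained and 6 lost, where 3.72% and 7.25% of all regions were. Of 57 regions called in all 4 libraries, 14 (24.6%) were higher and 11 (19.3%) were lower in both cKO libraries. Over all regions called in all 4 libraries, 22.2% were higher and 35.1% lower. Of their 24 promoter regions called in all 4 libraries, 5 were higher and 4 lower, where 20.8% and 33.7% of all protein-coding promoter regions were.

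Among 9 other class I and class I-like heavy chains, 3 of 14 regions called in all 4 libraries (21.4%) were higher in both cKO libraries and 0 lower. Of all such regions, 22.2% were higher and 35.1% lower. Of the heavy-chain promoters called in all 4 libraries, that of H2-M3 was higher. H2-M3, which presents formylated peptides of bacteria, was at 97.2 and 97.6 in WT and at 98.8 and 98.7 in cKO. The promoter peak of H2-Q6, a class Ib gene, was at 0 and 2.33 in WT and at 47.7 and 31.5 in cKO and is not in these counts, since WT replicate 1 had no peak there. Further, 64.9% of its 31-base words occur elsewhere, so its reads cannot be assigned to this gene alone. Cd1d1, which presents lipids, had 1 lost region.

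The 5 peptide-loading genes had 1 higher and 2 lower regions of 10 called in all 4 libraries (10% and 20%). Of all such regions, 22.2% were higher and 35.1% lower. The lower promoters were those of the chaperone gene Canx, at 93.8 and 94.2 in WT against 93.8 and 93.8 in cKO, and of the oxidoreductase gene Pdia3, at 95.6 and 96.5 against 91.3 and 94.8. The Canx values differed by less than 1 point. Pdia3 also had 1 lost region.

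Of the constitutive proteasome subunits whose places the inducible ones take, Psmb6 was at 50.8 and 59.9 in WT and at 61.8 and 63.6 in cKO at its promoter, and Psmb7 at 58.2 and 61.1 against 67.7 and 62.7. Both were higher without overlap. Psme1, a subunit of the PA28 activator, was lower, at 73.3 and 77.2 against 63.6 and 68.9. In all, 2 of 8 proteasome regions called in all 4 libraries were higher and 2 lower (25% and 25%), beside 22.2% and 35.1% of all such regions.

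The 6 regulators had 38 regions, among them 1 gained region at Rfxap and 4 lost ones (3 at Irf2 and 1 at Irf1). The promoter of Irf2, an interferon regulatory factor, was higher in both cKO libraries, at 92.1 and 92.9 in WT against 93.3 and 99.1. That of Rfxank, a subunit of the RFX complex that binds MHC promoters, was lower, at 91.1 and 91.2 against 89.1 and 90.1. Of 25 regulator regions called in all 4 libraries, 8 (32%) were higher and 7 (28%) lower, beside 22.2% and 35.1% of all such regions.

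The class II genes, which share the RFX complex but present peptides taken up from outside the cell, served as the neighbouring set. Of their 13 regions called in all 4 libraries, 2 were higher and 5 lower in both cKO libraries. Of the promoters, H2-Aa was higher at 0.658 and 4.04 in WT against 14.2 and 14.1 in cKO, and Cd74 was lower at 60.5 and 61.6 against 54.1 and 41.2. Ciita, the master regulator of class II genes, had a promoter region at 0 and 21.8 in WT and at 24.1 and 23.4 in cKO, which is not counted because WT replicate 1 had no peak there. Ciita had 1 lost region. These are 15.4% and 38.5% of the class II regions, beside 22.2% and 35.1% of all regions, and the difference between the class I and class II counts was not tested.

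**Figure D4:**
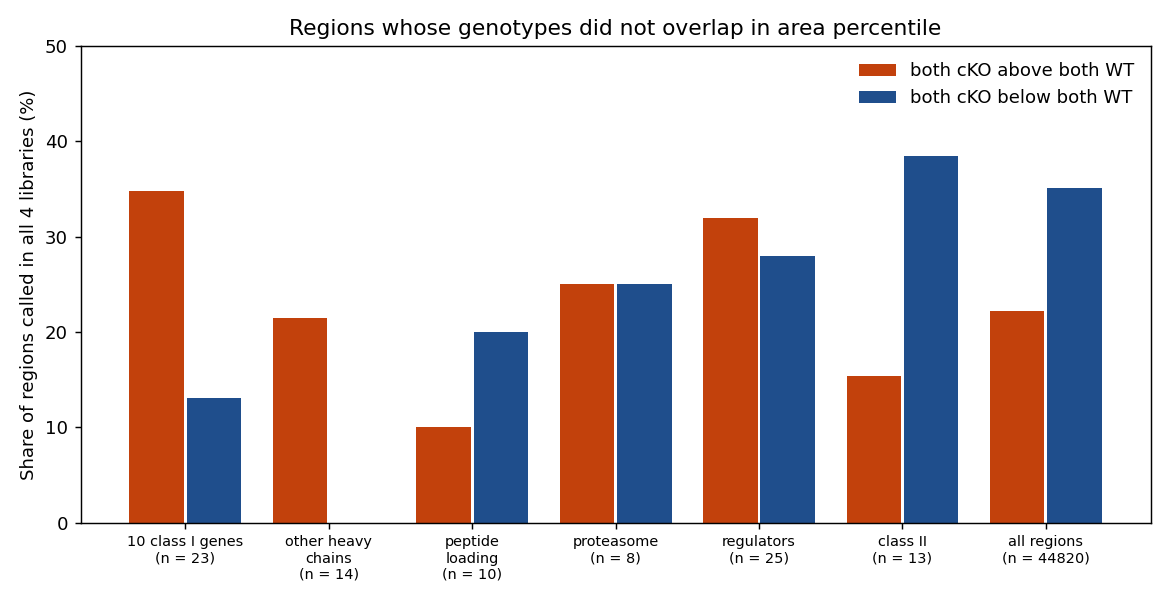
Share of the regions called in all 4 libraries (y axis, in %) in which both cKO libraries were above (orange) or below (blue) both WT libraries, for the 10 class I genes, the 4 groups of other pathway genes, the class II genes and all regions, with the number of regions under each group. The windows of the 10 class I genes, which also hold regions within neighbouring genes, stand at 34.8% and 13.0%. All regions stand at 22.2% and 35.1%, and groups of 8 to 25 regions move by several percent with each region.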

How the data were processed

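ATAC-seq peak lists of 2 WT and 2 cKO BMDM cultures were used. The authors aligned reads to mm10 with Bowtie2 (2.5.1 in the submitters' processing notes) and ran the peak caller Genrich at its defaults on each library by itself, with no pooling. What those defaults mean for duplicates, for the shift of read ends at transposase cuts and for reads with several matches is not spelled out in the sources used here, which give no further read filter. The deposited signal column held the area of each peak, never below 200, so that a site just under this limit is missing from a list. The deposited −log10 p-value at the summit was used as an alternative ranking. The q-value column was −1 throughout. Read depth is unknown, so no interval for counting error could be given.

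Peaks overlapping by at least 1 bp were merged into regions (Python 3.11.15, pandas 2.3.3, numpy 2.4.6). A region was gained if called in both cKO and neither WT library, and lost in the reverse case. Regions called in all 4 libraries were higher or lower where the percentiles of the genotypes did not overlap. Promoters ran from 1 kb upstream to 100 bp downstream of a start in the GENCODE M21 basic annotation. Where several regions overlapped a promoter, the one with the highest mean percentile was used. Coordinates are 1-based. The code was tested on simulated peak lists. Peak number and covered length were compared over the 6 assignments of labels to libraries. The text names all 10 genes and their regions, and other pathway genes only where they had a gained or lost region or a promoter that did not overlap. The results of 2 listed genes are not reported here by name. The members and lists were chosen with earlier results of these data known.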

Additional observations from a re-analysis of the deposited data

How the results depend on the processing

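With 2 libraries per genotype, no comparison could pass a threshold, and the counts moved with the lists. The difference of -1 peak in the windows became 2 with peaks at or above the median area and 1 with lists of equal length, and ranged from -3 to 1 without single libraries (1 without WT replicate 2, 0 without cKO replicate 1). The difference in covered length stayed positive in all settings run, from 1663 bp (2 kb windows) to 4460 bp. Gained regions numbered 0 with 2 kb windows, which do not reach the B2m site. They numbered 3 of 28 with equal lists (4320 of 61407 over all regions) and 2 of 32 with a cover of at least 50% (2923 of 71243). Without single libraries they numbered 1 to 3. There were 2 of 31 without WT replicate 2 (5276 of 66518) and 3 of 32 without cKO replicate 1 (6511 of 71113). The gained B2m region stayed gained above the median area, with equal lists and with the 50% cover. The other settings that reach it could not change this call, since they keep the peak lists as they are or only drop a library. Lost regions numbered 1 of 32 with the 50% cover (5949 of 71243 over all regions) and 0 to 3 without single libraries. There were 2 of 34 without WT replicate 1 (10212 of 71081) and 3 of 32 without cKO replicate 2 (9078 of 67796). Higher regions numbered 4 of 12 above the median area and 5 of 19 with the 50% cover, where 22.1% and 22.3% of all regions were higher. With ranks among regions in all 4 libraries they numbered 13 of 23 (36.5%), and without single libraries 10 to 14. There were 14 of 23 without WT replicate 2 (41.4%) and 14 of 26 without cKO replicate 1 (38.7%). They numbered 10 of 25 without WT replicate 1 (25.0%) and 11 of 25 without cKO replicate 2 (23.4%). Lower regions numbered 1 of 12 above the median area (36.5% of all regions) and 5 of 23 by −log10 p (35.1%). Without single libraries they numbered 5 to 7. There were 7 of 25 without WT replicate 1 (54.5%) and 5 of 23 without WT replicate 2 (35.9%). There were 7 of 26 without cKO replicate 1 (38.7%) and 7 of 25 without cKO replicate 2 (56.6%). Of the 8 higher regions, 4 remained above the median area, 5 with the 50% cover and 7 with equal lists. With the ranks among shared regions 8 remained, and 6 by −log10 p. Of the 3 lower ones, 1, 2, 2, 3 and 3 remained in the same order of settings. Values are ranked within each library, so a region that did not overlap keeps its order without any single library. Leaving out libraries thus could not test that order. Taken within replicate numbers (the replicate block), 13 regions were higher and 5 lower in both pairs, against 33.3% and 48.7% of all regions. Replicate 2 minus replicate 1 correlated between the genotypes at 0.295 over 44820 regions, which is across regions and rests on 2 pairs. Whether same-numbered samples were handled together is not given in the sources used here, so the numbers were not used to pair them.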

Other observations

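The covered length in the 5 kb past the end of the gene was computed for 21755 protein-coding genes, a measure chosen after the B2m peaks had been seen. Of 5699 genes with any cover there, the median difference between cKO and WT was -16.5 bp, with 1105 genes higher and 1782 lower in both cKO libraries. B2m, with an increase of 2689 bp, ranked 12 of the 21755, and 17 genes had an increase of 2 kb or more. The genes ranked above it were Fdft1, Cdh23, Dlgap5, Lgmn, Hmox1, Crlf2, Resf1, Trappc6b, Trim25, Rin3 and Atp1b3. Fdft1, which encodes the enzyme making squalene, had 268 and 966 bp covered in WT and 4607 and 4842 bp in cKO. Hmox1, which encodes a heme-degrading enzyme, had 393 and 429 bp against 2985 and 4721 bp. The other class I genes changed by -107.5 to 193 bp, the latter H2-D1, whose cover came from cKO replicate 2 alone. With lists of equal length B2m ranked 11. These ranks describe the 4 libraries and carry no test.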
